A study of Mus musculus with 4 samples.

Results

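Erythroid cells, the precursors and circulating forms of red blood cells, were chosen by their haemoglobin transcripts from Drop-seq data on the embryonic mouse kidney. Drop-seq catches cells in droplets with barcoded beads and counts the 3' ends of their transcripts, so the unit is a cell barcode and the count is called a UMI here. A barcode was taken as erythroid where genes starting Hba- or Hbb- held at least 20% of its UMIs and mitochondrially encoded genes at most 10%. This gave 118 of the 15144 deposited barcodes, or of the 12399 within the mitochondrial limit. The other 12281 barcodes within the limit served as the comparison. The haemoglobin share chose the members, so their haemoglobin levels against other barcodes are described and not tested.

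The 4 libraries came from kidneys at E14.5, all on a mixed background that was mostly CD-1 and 129. The 2 mutant libraries were homozygous mutant (-/-) at Hoxd9, Hoxd10, Hoxd11, Hoxa9, Hoxa10 and Hoxa11, and the 2 wildtype libraries are labelled wildtype. The labels do not say how many embryos were pooled for a library, nor that libraries came from separate animals. A p-value here thus speaks only of these libraries, whose spread may be technical. In the edgeR tests that spread is estimated with information shared over genes. Libraries differed strongly in erythroid number, with 1 of 853 barcodes in mutant 1, 10 of 4557 in mutant 2, 6 of 1949 in wildtype 1 and 101 of 5040 in wildtype 2. Wildtype 2 thus held most members, and mutant 1 is represented by its only erythroid barcode. Any pair of libraries shared at most 2 barcode sequences, none of them erythroid. All 6 members of wildtype 1 and 12 of wildtype 2 fell among the 5% of barcodes in their library with the highest Scrublet doublet scores, and none of mutant 1 or mutant 2 did.

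As background, red cells of the embryo arise in waves. Primitive erythroid cells of the yolk sac make haemoglobin with embryonic chains, namely the beta-like chains Hbb-y and Hbb-bh1 and the alpha-like chain Hba-x. Definitive cells, made in the fetal liver, use the adult beta chains Hbb-bs and Hbb-bt with the adult alpha chains Hba-a1 and Hba-a2, and both kinds circulate at this stage. Maturing cells load iron through the transferrin receptor, build haem in mitochondria and cytosol, assemble a spectrin-based membrane skeleton and then clear their organelles and nucleus.

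The haemoglobin classes described here differ in their use of Hbb-y, Hbb-bs and Hba-x, while Hba-a1 was high in both. The promoter sequences of these 4 globin genes and of Alas2, the erythroid form of the first enzyme of haem synthesis, are shown. Each is the 250 bases before the RefSeq start on GRCm38.p6, read 5′ to 3′ on the gene's strand. Gene positions given below are of GENCODE vM21, whose starts differ, so each window runs past its gene's start there. For Hba-x that start is chr11:32276400. Capitals mark matches on either strand to GATAA, the core bound by GATA factors, to CACCC, the core bound by Klf factors, and to CCAAT. On the minus strand lie Hbb-y (chr7:103853208-103853457) and Hbb-bs (chr7:103827929-103828178), and on the plus strand lie Hba-x (chr11:32276350-32276599), Hba-a1 (chr11:32283422-32283671) and Alas2 (chrX:150547167-150547416).
Hbb-y: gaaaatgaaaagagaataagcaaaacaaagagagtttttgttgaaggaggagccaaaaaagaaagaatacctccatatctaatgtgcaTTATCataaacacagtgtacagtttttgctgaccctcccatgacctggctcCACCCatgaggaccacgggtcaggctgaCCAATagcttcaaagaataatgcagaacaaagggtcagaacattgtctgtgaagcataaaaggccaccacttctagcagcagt
Hbb-bs: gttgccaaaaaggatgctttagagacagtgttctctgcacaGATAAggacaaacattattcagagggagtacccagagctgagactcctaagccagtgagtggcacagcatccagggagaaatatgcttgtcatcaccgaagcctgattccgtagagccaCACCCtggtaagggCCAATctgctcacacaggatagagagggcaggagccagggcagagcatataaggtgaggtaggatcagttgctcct
Hba-x: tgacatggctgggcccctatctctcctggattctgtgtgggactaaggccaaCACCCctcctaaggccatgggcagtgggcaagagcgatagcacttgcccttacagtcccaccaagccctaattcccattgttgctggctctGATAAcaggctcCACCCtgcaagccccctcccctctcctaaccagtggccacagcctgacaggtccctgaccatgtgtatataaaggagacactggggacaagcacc
Hba-a1: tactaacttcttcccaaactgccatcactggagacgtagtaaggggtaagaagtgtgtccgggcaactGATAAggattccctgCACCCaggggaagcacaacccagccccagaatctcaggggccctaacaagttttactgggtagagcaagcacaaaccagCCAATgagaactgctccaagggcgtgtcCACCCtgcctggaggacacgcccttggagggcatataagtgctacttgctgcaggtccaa
Alas2: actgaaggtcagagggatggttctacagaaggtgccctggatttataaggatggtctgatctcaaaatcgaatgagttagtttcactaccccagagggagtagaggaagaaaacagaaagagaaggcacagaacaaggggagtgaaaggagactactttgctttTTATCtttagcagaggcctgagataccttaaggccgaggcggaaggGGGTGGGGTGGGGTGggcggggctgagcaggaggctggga
GATAA was found in 5 of these 5 windows and in 22.6% of 32851 promoter windows of the same length. CACCC was found in 5 of 5, against 52.0% of all windows, with the Alas2 matches lying end to end on the opposite strand. CCAAT was found in 3 of 5, against 33.8% of all windows, and was not matched in the Hba-x or Alas2 window. A match is a string of letters and not a measured binding site.

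The erythroid label was checked against markers that the rule did not use. At least 1 UMI of Alas2 or of Slc4a1 (band 3), the anion exchanger of the red cell membrane, was present in 91 of 118 erythroid barcodes and in 77 of 12281 other barcodes, or 77.1% against 0.627%. By library, 1 of 1 member of mutant 1, 9 of 10 of mutant 2, 4 of 6 of wildtype 1 and 77 of 101 of wildtype 2 carried such a UMI. With every barcode thinned to 500 non-haemoglobin UMIs, Alas2 was found in 8 of 10 members of mutant 2 (80%, exact 95% interval 44.4 to 97.5%) and 52 of 101 of wildtype 2 (51.5%, 41.3 to 61.6%), against 0.176% and 0.0405% of the other barcodes of those libraries. In the smaller libraries it was found in 1 of 1 member of mutant 1 and 1 of 6 of wildtype 1 (16.7%, 0.421 to 64.1%). Slc4a1, thinned likewise, was found in 1 of 1, 5 of 10, 3 of 6 and 28 of 101 members of mutants 1 and 2 and wildtypes 1 and 2. Before thinning the Alas2 shares in mutant 2 and wildtype 2 were 90% and 75.2% of members, against 0.418% and 0.628% of other barcodes. Intervals and floors throughout cover counting error only.

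The label was weaker near the threshold. Of the 90 members with a haemoglobin share of at least 40%, 76 carried at least 1 of these transcripts, against 15 of the 28 with a lower share. In wildtype 2 the 4 members between 20 and 25% carried neither, and no UMI of the 18 membrane and skeleton genes. Just outside, 5 barcodes of wildtype 2 at 10 to 15% held 6 UMIs of Slc4a1 in 2 barcodes and 81 of Car2 in 3. Between 15 and 20% lay 1 barcode of mutant 1, none of mutant 2, 2 of wildtype 1 and 5 of wildtype 2. Thus members just inside the limit could lack red cell transcripts, while some barcodes below it had them.

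Members varied in depth as much as in haemoglobin. Their median haemoglobin share was 24.7% in mutant 1, 73.1% in mutant 2, 27.7% in wildtype 1 and 58.8% in wildtype 2, and the highest in any library was 87.8%. Outside haemoglobin they held a median of 1269, 1418.5, 4369.5 and 1628 UMIs in mutants 1 and 2 and wildtypes 1 and 2, against 2466, 2998, 3596 and 3414 in the other barcodes. Their median number of genes was 865, 819, 2015.5 and 946, against 1293.5, 1674, 1760 and 1658 in the other barcodes of the same libraries. Members thus held fewer genes than the rest in mutants 1 and 2 and wildtype 2, and more in wildtype 1. Thinned to 500 non-haemoglobin UMIs, they held a median of 399, 366.5, 407 and 381 genes, against 394, 411, 406 and 397, which was lower in mutant 2 and wildtype 2 and about equal in the other 2 libraries. The tables hold no barcode with under 500 genes, and 3 members of mutant 2, 2 of wildtype 1 and 25 of wildtype 2 had under 600.

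Haemoglobin transcripts were also spread thinly over the remaining barcodes. At least 1 haemoglobin UMI was present in 50.5, 66.6, 42.3 and 93.3% of the other barcodes of mutants 1 and 2 and wildtypes 1 and 2, where haemoglobin made up 0.0443, 0.101, 0.0301 and 0.194% of UMIs. Erythroid barcodes held 22.1% of the haemoglobin UMIs of mutant 1, 68.3% of mutant 2, 80.4% of wildtype 1 and 88.4% of wildtype 2. Per 1000 haemoglobin UMIs, Alas2 gave 2.40, 1.41, 0.760 and 1.03 UMIs in erythroid barcodes, against 2.73, 1.05, 2.77 and 0.916 in the other barcodes of the same libraries. In mutant 2 and wildtype 2, which had the most members, the proportion of Alas2 to haemoglobin in the other barcodes was thus near that in erythroid ones.

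**Figure D1:**
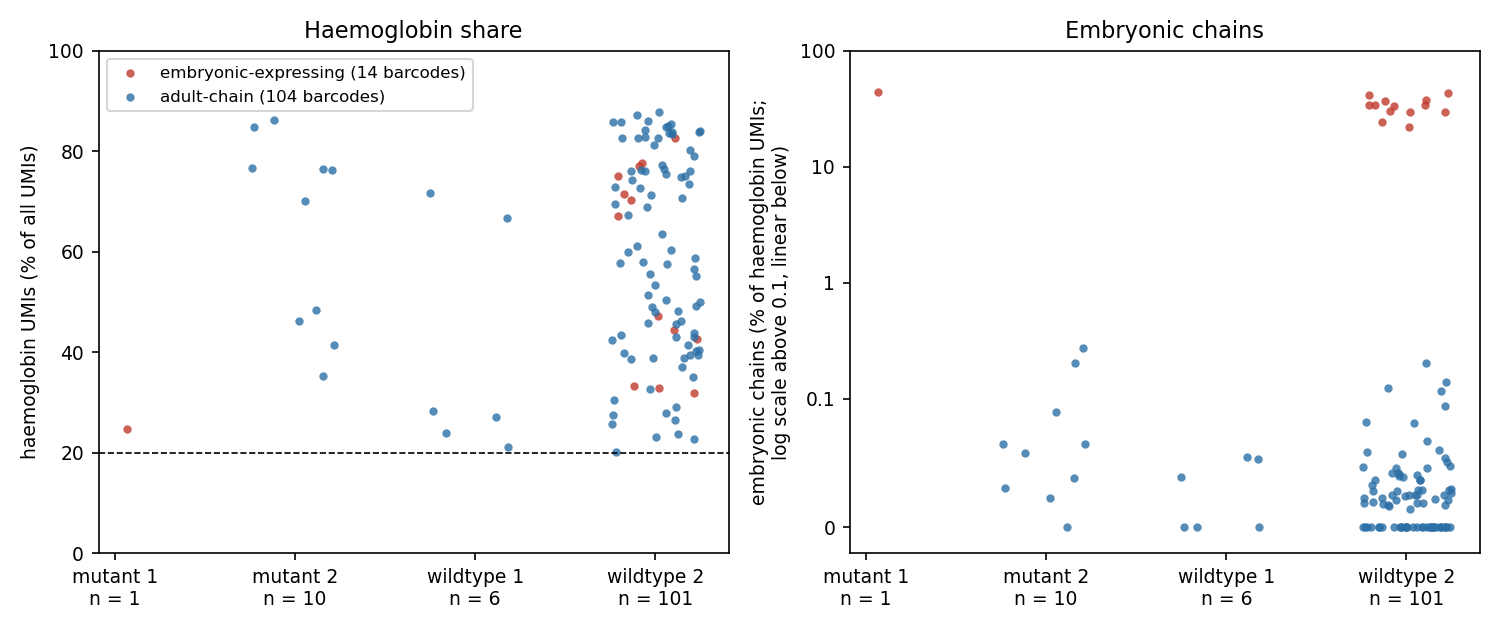
Each point is 1 of the 118 erythroid barcodes, placed by library, with 1 in mutant 1, 10 in mutant 2, 6 in wildtype 1 and 101 in wildtype 2. The left panel gives haemoglobin as a percent of all UMIs, with the 20% limit dashed, and the right panel gives the embryonic chains as a percent of haemoglobin UMIs on an axis that is logarithmic above 0.1 and linear below. The 14 embryonic-expressing barcodes lie at 22.0% or more and the other 104 at 0.275% or less.

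Members fell into 2 haemoglobin classes with nothing between them. In 14 barcodes, 13 of wildtype 2 and the only member of mutant 1, the embryonic chains Hbb-y, Hbb-bh1 and Hba-x made up 22.0 to 44.2% of haemoglobin UMIs. In the other 104 barcodes they made up at most 0.275%, and 66 of these had any embryonic UMI. All 10 members of mutant 2 and all 6 of wildtype 1 belonged to the second class. The dividing value of 10% was placed in this gap after the values were seen, because the value of 50% first set left no barcode in the embryonic class, so the classes are a description.

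In the embryonic-expressing barcodes of wildtype 2, Hbb-y (GENCODE vM21, mm10, chr7:103851749-103853216, minus strand) led the beta-like chains. It gave 8186 of 28357 haemoglobin UMIs, or 28.9% (exact interval 28.3 to 29.4%), against 59 of 321187, or 0.0184%, in the 88 adult-chain barcodes of the same library. Per barcode it gave between 107 and 1579 UMIs with a median of 529, against 0 to 3 in the adult-chain barcodes. The mutant 1 barcode held 144 Hbb-y UMIs among 416 of haemoglobin, or 34.6% (30.0 to 39.4%). In mutant 2 and wildtype 1 the pooled share was 0.0256 and 0.0253%.

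The summed share of Hbb-y, Hbb-bh1 and Hba-x set the classes, so the difference of each chain between them is partly built in. The embryonic alpha-like chain Hba-x (chr11:32276400-32278116, plus strand) gave at least 31 UMIs in each embryonic-expressing barcode and at most 2 in each adult-chain one. It made up 5.06% of haemoglobin UMIs in the embryonic-expressing barcodes of wildtype 2 and 9.38% in that of mutant 1, against 0.00156% in the adult-chain barcodes of wildtype 2. No Hba-x UMI was seen among the 39080 haemoglobin UMIs of mutant 2 or the 11844 of wildtype 1. Hbb-bh1, the earliest beta-like chain of the mouse embryo, stayed low, at 0.423% in the wildtype 2 embryonic class and 0.240% (1 UMI) in mutant 1, against 0.00498% in the wildtype 2 adult-chain class. Mutant 2 held 23 Hbb-bh1 UMIs, or 0.0589%, of which 16 came from 1 barcode.

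Embryonic-expressing barcodes contained adult chains too, and the embryonic part was smaller on the alpha side. Adult beta chains were the minority there, with Hbb-bs at 4.65% and Hbb-bt at 3.78% of haemoglobin UMIs, against 26.7% and 22.6% in adult-chain barcodes of wildtype 2. The adult alpha chains Hba-a1 and Hba-a2 made up 30.1 and 27.1%, against 26.4 and 24.3%. Hbb-y thus gave 76.5% of beta-like UMIs, while Hba-x gave 8.12% of alpha-like UMIs, and in the mutant 1 barcode these were 73.8% and 17.6%. The ratio of alpha-like to beta-like UMIs was 1.65 in the embryonic-expressing class of wildtype 2 (1.27 to 4.41 over its 13 barcodes) and 1.13 in the mutant 1 barcode, against 1.03 in the adult-chain class of wildtype 2 (0.811 to 1.63 over 88), 0.931 in mutant 2 and 0.794 in wildtype 1.

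Some chains cannot be separated with confidence. The Hba-a1 and Hba-a2 transcripts are 99.8% identical over 538 aligned bases, so their split may reflect how reads were assigned, and their ratio lay between 1.06 and 1.12 in erythroid sums of the 4 libraries. Hbb-bs and Hbb-bt are 92.7% identical. Hbb-y is 71.3% identical to Hbb-bs and Hba-x 66.1% identical to Hba-a1.

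The few haemoglobin UMIs of other barcodes carried more embryonic chains than the erythroid barcodes did in 3 of 4 libraries. Embryonic chains made up 44.2, 0.0844, 0.0253 and 2.81% of haemoglobin UMIs in erythroid barcodes of mutants 1 and 2 and wildtypes 1 and 2, against 14.4, 1.32, 0.416 and 5.09% in the other barcodes. The 14.4% of mutant 1 rested on 1 barcode just below the limit, at a haemoglobin share of 19.3%, which held 172 of the 211 embryonic UMIs. In other barcodes with a haemoglobin share under 10%, a limit added after the data were seen, the values were 3.70, 1.37, 0.587 and 3.96%, still above the erythroid value in mutant 2 and both wildtype libraries. In mutant 2 the difference rested on 33 embryonic UMIs in erythroid barcodes against 240 in the others, and in wildtype 1 on 3 against 12.

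**Figure D2:**
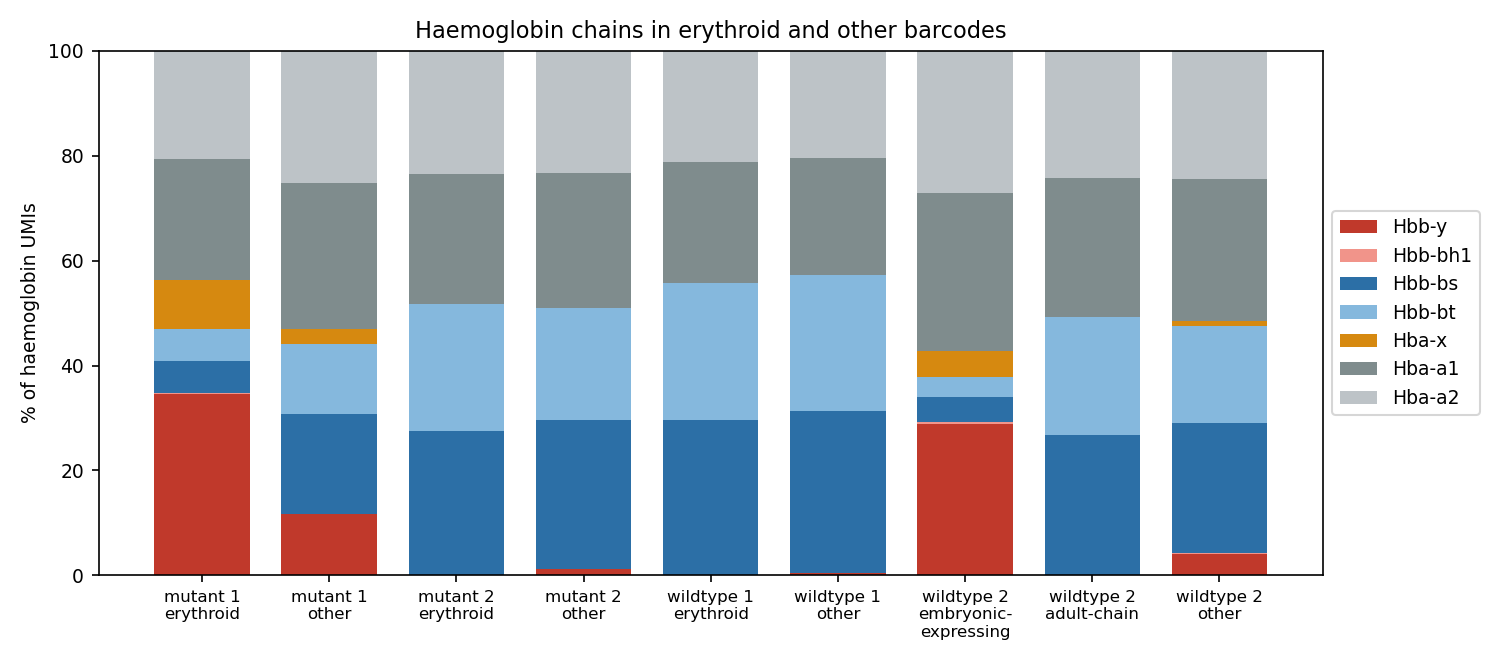
Stacked bars give each chain's percent of haemoglobin UMIs, summed over the barcodes of each kind, for erythroid and other barcodes of each library, with the erythroid barcodes of wildtype 2 divided into embryonic-expressing and adult-chain. Hbb-y reaches 34.6% in mutant 1 and 28.9% in the embryonic-expressing class of wildtype 2, and 0.0256% or less in the erythroid barcodes of mutant 2, wildtype 1 and the adult-chain class of wildtype 2.

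Outside haemoglobin, erythroid barcodes were marked by genes for haem synthesis, iron handling, the red cell membrane, haemoglobin support and redox, and organelle removal. Counts of non-haemoglobin genes were summed per library over erythroid and over other barcodes, scaled to 1e6 non-haemoglobin UMIs (counts per 1e6, CPM), and compared with edgeR's quasi-likelihood test with library as a block. At a Benjamini-Hochberg adjusted p under 0.05, 208 of 10270 tested genes were higher in erythroid barcodes (2.03%) and 15 were lower (0.146%). Without mutant 1, whose erythroid sum is 1269 UMIs, 229 of 12597 were higher (1.82%) and 1 was lower (0.00794%), the actin-bundling gene Espn, named after its value was seen. In all, 177 genes were higher in both fits and none was lower in both, and "rose" is used here only of those 177. The median log2 fold change over all tested genes was -0.10, and all fold changes are erythroid over other barcodes. DESeq2 called 56 genes, all higher, and without wildtype 2 edgeR called 85, all higher. A pooled sum cannot separate more RNA per cell from more cells carrying that RNA.

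Of the genes for haem synthesis, its enzymes and transporters, 9 of 12 tested (13 listed) rose and none was lower, with a median log2 fold change of 2.54. Alas2 (chrX:150547375-150570638, plus strand) stood at 788, 2648, 384 and 1395 CPM in erythroid barcodes of mutants 1 and 2 and wildtypes 1 and 2, against 1.21, 1.06, 0.834 and 1.78 CPM in the other barcodes. Every erythroid sum lay above every other sum, and the log2 fold change was 10.14 (SE 0.383, edgeR adjusted p = 4.94e-148). The values of mutant 1 for Alas2 and Slc4a1 each rest on 1 UMI.

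Later steps of the pathway rose as well. Fech, which inserts iron into protoporphyrin, stood at 0, 1685, 214 and 730 CPM in erythroid barcodes of mutants 1 and 2 and wildtypes 1 and 2, against 16.03, 23.1, 14.2 and 20.002 CPM (log2 fold change 5.39, edgeR adjusted p = 1.16e-54). The intermediate enzymes Cpox, Urod and Alad rose by 3.99, 2.66 and 2.42 on the log2 scale, and the mitochondrial transporter Abcb10 by 3.25. Uros and Ppox also rose, by 2.204 and 2.23. The housekeeping form of the first enzyme, Alas1, did not pass (log2 fold change 0.29, edgeR adjusted p = 0.970), nor did the transporters Slc25a38 (1.01) and Tmem14c (1.12).

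Iron handling followed, with 6 of 9 tested genes (10 listed) risen and a median of 2.005. The mitochondrial iron importer Slc25a37 (mitoferrin 1) stood at 0, 1829.8, 683 and 773 CPM in erythroid barcodes of mutants 1 and 2 and wildtypes 1 and 2, against 11.5, 14.9, 20.3 and 14.97 CPM. The groups were separate in all libraries but mutant 1, and the log2 fold change was 6.005 (SE 0.317, edgeR adjusted p = 1.03e-75). The transferrin receptor Tfrc, the ferritin-degradation receptor Ncoa4 and the iron-sulphur protein Glrx5 rose by 2.98, 2.86 and 2.005. Both ferritin chains rose. Fth1 stood at 3152, 6164, 2605 and 5675 CPM, against 1139, 1037, 1017 and 1163 CPM in the other barcodes of the same libraries, and Ftl1 rose by 1.87, though not past DESeq2's threshold (adjusted p = 0.309). Slc11a2 and Ireb2 did not pass, at -0.44 and -0.52.

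All 6 tested genes of the membrane and its skeleton (18 listed) rose, with a median of 3.92. The other 12 were too sparse for the test with mutant 1 in it, and without mutant 1 the test called 14 of 15 higher. Without wildtype 2 it called 3 of 5. Slc4a1 (chr11:102348824-102366203, minus strand) stood at 788, 915, 854 and 680 CPM in erythroid barcodes of mutants 1 and 2 and wildtypes 1 and 2, against 1.21, 0.111, 0.209 and 0.761 CPM in the other barcodes. No library overlapped, and the log2 fold change of 10.80 (SE 0.425, edgeR adjusted p = 5.02e-135) was the largest among the genes named here. The skeleton genes Dmtn, Tmod1 and Epb4.1 and the membrane gene Gypc rose by 4.09, 3.75, 2.75 and 2.60.

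Haemoglobin support and redox genes counted 5 risen of 8 tested (11 listed), with a median of 2.98. Car2, the carbonic anhydrase that hydrates CO2, stood at 0, 3756, 1324 and 2136 CPM in erythroid barcodes of mutants 1 and 2 and wildtypes 1 and 2, against 19.4, 13.8, 24.7 and 18.7 CPM (log2 fold change 6.97, edgeR adjusted p = 1.35e-104). The biliverdin reductase Blvrb rose by 4.92, the glutathione peroxidase Gpx1 by 4.03, the 2,3-bisphosphoglycerate mutase Bpgm by 3.78 and the peroxiredoxin Prdx2 by 2.17. Catalase (Cat), Hagh and Sod1 did not pass, at 1.22, 1.28 and 0.51.

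Genes that take part in removing organelles and remodelling the proteome counted 7 higher of 8 tested (13 listed), 6 of them in both fits, with a median of 2.196. Ube2l6, a ubiquitin-conjugating enzyme, stood at 0, 578, 42.7 and 127 CPM in erythroid barcodes of mutants 1 and 2 and wildtypes 1 and 2, against 9.37, 5.18, 4.38 and 2.92 CPM (log2 fold change 5.68, edgeR adjusted p = 4.88e-54). The ubiquitin ligase Mkrn1, the hybrid ubiquitin enzyme Ube2o, the nuclear exporter Xpo7, the kinase Riok3 and the mitophagy receptor Bnip3l rose by 4.02, 2.22, 2.205, 2.19 and 2.13. Without wildtype 2 the count was 4 of 8, and with DESeq2 it was 2. Xpo7 rested on wildtype 2, with 62 of its 64 erythroid UMIs. Fbxo7 lost its call without mutant 1 (edgeR adjusted p = 0.0562).

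Transcription factors and receptors were sparser. Of 8 tested erythroid factors (14 listed), 3 rose. They were Tal1 by 4.62, Sox6 by 3.26 and Lmo2 by 3.14. Tal1, which with Lmo2 sits in the erythroid GATA complex, stood at 0, 96.3, 85.4 and 96.6 CPM in erythroid barcodes of mutants 1 and 2 and wildtypes 1 and 2, against 3.93, 6.85, 2.92 and 3.76 CPM (edgeR adjusted p = 2.92e-26). The other 5 were Bcl11a, Myb, Ldb1, Foxo3 and Klf3, at -0.96 to 1.43. Klf1 and Gata1 were not among the 8 tested. Klf1 gave 0, 3, 5 and 36 UMIs in erythroid barcodes of mutants 1 and 2 and wildtypes 1 and 2. This was 0, 144, 214 and 139 CPM, against 0.907, 0.390, 1.04 and 2.75 CPM in the other barcodes. Gata1 gave 6 erythroid UMIs in wildtype 2 and 0 in each other library. Without wildtype 2, and likewise with DESeq2, Tal1 alone of the list passed, and without mutant 1 the count was 5 of 11. In the Epo and Kit list 3 of 6 tested genes (8 listed) rose, namely the erythropoietin receptor Epor by 2.72, the kinase Pim1 by 2.42 and the survival gene Bcl2l1 by 1.83. None of this list passed without wildtype 2 (edgeR, 1 of 4 tested at an unadjusted p under 0.05) or with DESeq2 (2 of 6). Kit, the receptor of early progenitors, was at -0.07 with 2 erythroid UMIs, and Myb, a factor of immature cells, had 4.

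Cell-cycle genes were mixed. None of 14 S-phase genes passed, with a median of 0.08, and 2 of 14 genes of the G2 and M phases rose, with a median of 0.58. Mki67 stood at 1576, 1252, 1452 and 452 CPM in erythroid barcodes of mutants 1 and 2 and wildtypes 1 and 2, against 211, 407, 265 and 146 CPM, with no overlap (log2 fold change 2.04, edgeR adjusted p = 5.29e-13). Its value in mutant 1 rests on 2 UMIs. Ube2c rose by 1.24, a call that was lost with DESeq2 (adjusted p = 0.746) and without wildtype 2 (edgeR adjusted p = 0.416). With TMM factors over all genes neither passed, with edgeR adjusted p of 0.327 for Mki67 and 0.828 for Ube2c. Of 109 ribosomal protein genes none passed, with a median of -0.10.

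Further genes were among the largest changes higher without being on a list. In both fits and without overlap in mutant 2, wildtype 1 and wildtype 2, the cell-cycle regulator Rgcc rose by 4.80, the mitochondrial protein Fam210b by 4.69, the membrane ubiquitin ligase March2 by 4.09 and the glutathione-degrading Chac2 by 4.05. Among genes without overlap in all 4 libraries, Creg1, Josd2, Pigq, Grina, Hspa4l, the autophagy gene Gabarapl2 and the ubiquitin ligase subunit Wdr26 rose by 2.92, 2.74, 2.41, 2.38, 2.01, 1.87 and 1.52. In the only erythroid barcode of mutant 1 a single UMI is 788 CPM, so this trait turns largely on whether that barcode caught a UMI. Of the 208 higher genes, 21 had no overlap in all 4 libraries and 131 had none with mutant 1 set aside. The share without overlap among all 10270 tested genes is not given here, so these counts only describe the called genes. Pabpc1 and Neil3 were higher with all libraries but lost their call without mutant 1. All 3 lower genes named by the same rule, the Na,K-ATPase subunits Fxyd2 (-3.07) and Atp1b1 (-1.57) and the epithelial keratin Krt18 (-2.72), lost their call without mutant 1 at edgeR adjusted p of 0.134, 0.0939 and 0.0788. Fxyd2 and Krt18 are on the tubule and ureteric lists. Of the 15 lower genes, 9 had no erythroid UMI, and 524 genes were lower at an unadjusted p under 0.05.

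**Figure D3:**
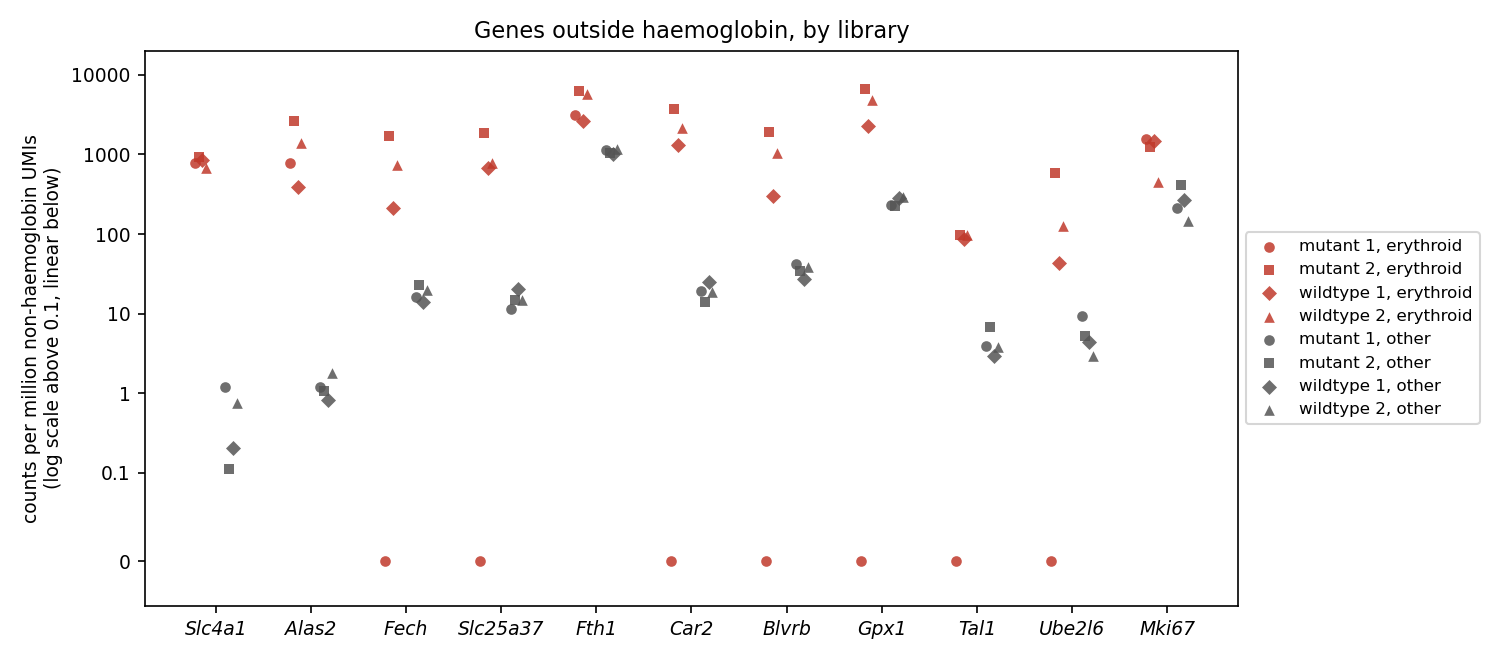
Points give the level of 11 genes in CPM, on an axis that is logarithmic above 0.1 and linear below, for erythroid (red) and other (grey) barcodes of each of the 4 libraries. Slc4a1 lies at 680 to 915 CPM in erythroid barcodes and at 0.111 to 1.21 CPM in the others, while Fth1 differs by a log2 fold change of 2.17.

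**Figure D4:**
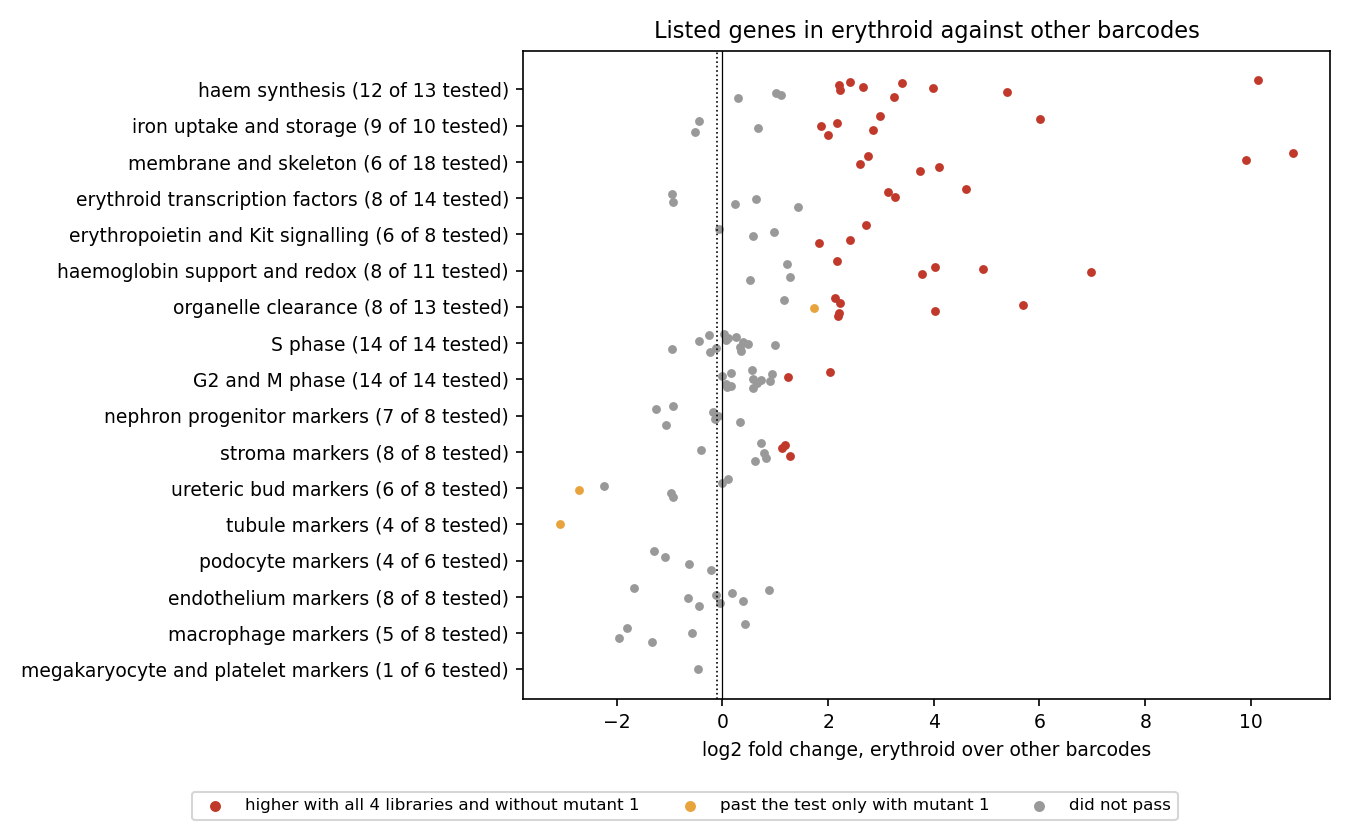
Each point is a listed gene with at least 1 erythroid UMI, placed by its log2 fold change of erythroid over other barcodes, with 3 tested genes at 0 erythroid UMIs left out. Red marks genes higher with all 4 libraries and without mutant 1, orange genes past the test only with mutant 1, and grey genes that did not pass, and the dotted line is the median of all genes (-0.10). The 9 risen haem synthesis genes lie to the right, while the 14 S-phase genes stay around 0.

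Markers of other cell types were carried by part of the erythroid barcodes. Summed over 60 genes of 8 other cell types, 37 of the 118 members had no UMI, 33 had 1 to 4 and 48 had 5 or more. Those with 5 or more were 1 of 1 in mutant 1, 5 of 10 in mutant 2, 3 of 6 in wildtype 1 and 39 of 101 in wildtype 2. The stromal list was highest, at 14184, 13290.3, 2306 and 1576 CPM in erythroid barcodes of mutants 1 and 2 and wildtypes 1 and 2, against 5467, 5402, 1716 and 861 CPM in the other barcodes. These are pooled values, and 1 of 1, 7 of 10, 1 of 6 and 42 of 101 members held any stromal UMI. Of the 8 stromal genes, 3 rose, the collagens Col1a2 (1.18) and Col3a1 (1.13) and the proteoglycan Dcn (1.28), and none of them passed with DESeq2, with TMM over all genes, without mutant 2 or without wildtype 2. A limit chosen once the data had been seen kept members with under 5 UMIs of the 60 genes (none of mutant 1, 5 of mutant 2, 3 of wildtype 1 and 62 of wildtype 2). Under it Col1a2, Col3a1 and Dcn were at -2.95, -2.47 and -3.62. These 3 are among the 60 genes, so their fall is built into the limit and tests nothing.

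Under that limit, which also leaves out mutant 1, every gene of the 7 erythroid lists that is called risen here passed again. The counts were 10 of 12 for haem synthesis, 6 of 9 for iron, 14 of 15 for membrane, 6 of 11 for transcription factors, 3 of 7 for Epo and Kit, 8 of 9 for redox and 10 of 10 for organelle clearance, all of them higher. That fit also called more genes in all than the fit with every member, so its larger counts are not compared with those above. Its members are part of those tested before, so it is not an independent check. Their median haemoglobin share was 70.0, 66.8 and 75.2% in mutant 2, wildtype 1 and wildtype 2, against 76.2, 24.0 and 41.4% in the members left out. The part of this in the counts was not tested. Markers of other blood cells rested on few UMIs in erythroid barcodes, with 0 to 9 UMIs a library for macrophage genes and 0 to 5 for megakaryocyte and platelet genes. Macrophage genes summed to 0, 48.2, 0 and 34.8 CPM in erythroid barcodes of mutants 1 and 2 and wildtypes 1 and 2, against 224, 84.5, 70.4 and 66.4 CPM in the other barcodes. Megakaryocyte and platelet genes summed to 0, 0, 42.7 and 19.3 CPM, against 153, 18.6, 41.3 and 28.0 CPM, so in wildtype 1 they were about level with the other barcodes. Of nephron progenitor (7 tested), podocyte (4), endothelium (8) and macrophage (5) genes none passed, and of tubule (4) and ureteric (6) genes only Fxyd2 and Krt18 did.

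Within wildtype 2, which held enough members for a graded description, transcripts of the red cell programme took a growing part of non-haemoglobin RNA as the haemoglobin share grew. The bands 20 to 25, 25 to 40, 40 to 60, 60 to 80 and 80 to 100% held 4, 18, 30, 28 and 21 barcodes. Haem synthesis genes summed to 946, 2429, 2774, 8478 and 16667 CPM over these bands. Membrane genes summed to 0, 1395, 1184, 9634 and 14584 CPM, and organelle clearance genes to 284, 763, 1677, 3771 and 13258 CPM. Levels were highest above 60%, while membrane genes were no higher at 40 to 60% than at 25 to 40%.

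Over the same bands the depth outside haemoglobin fell away. The median number of genes was 1427, 2120, 1385.5, 734 and 553, and the median of non-haemoglobin UMIs was 2734.5, 5298.5, 2566.5, 1201.5 and 949. Stromal markers stood at 4069, 1235, 2291, 743 and 284 CPM, and ribosomal protein genes made up 19.0, 19.0, 18.3, 13.0 and 10.0% of non-haemoglobin UMIs. The part of depth and of other cells' RNA in the gradation was not tested. Over the 101 barcodes, which share 1 library, the haemoglobin share had a Spearman correlation of -0.84 with the number of genes, 0.71 with Alas2 CPM and -0.50 with the summed markers of other cells. Since haemoglobin is part of total UMIs, the first of these is partly built in.

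Proliferation genes did not follow a common course. The S-phase list stood at 2177, 2680, 2280.3, 2670.0 and 900 CPM over the 5 bands and was lowest in the most haemoglobin-rich barcodes. The G2 and M list stood at 2177, 3323, 2171, 7459 and 7908 CPM and was highest there. Malat1, a nuclear non-coding RNA, stood at 1420, 1576, 1842, 4321 and 3551 CPM.

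**Figure D5:**
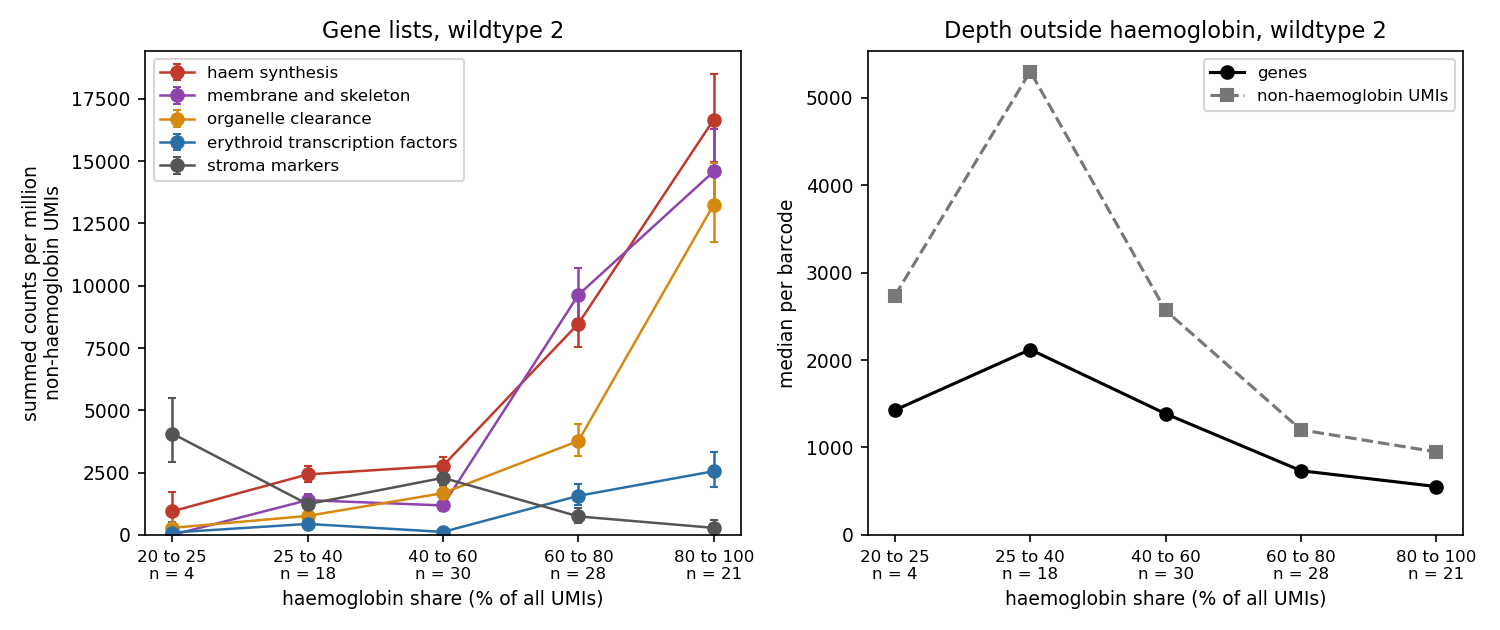
The left panel gives the summed CPM of 5 gene lists over 5 bands of haemoglobin share among the 101 erythroid barcodes of wildtype 2, with 95% Poisson intervals, and the right panel gives the median number of genes and of non-haemoglobin UMIs per barcode. Haem synthesis is highest at 80 to 100%, with 16667 CPM, while the median number of genes is 553 there.

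Cut at a haemoglobin share of 50%, wildtype 2 gave 60 haemoglobin-rich barcodes with 83186 non-haemoglobin UMIs and 41 moderate ones with 175670. With 1 library there is no test, and a gene is called past a 2-fold ratio of CPM. Of 4110 genes with at least 10 UMIs, 12.7% were at least 2-fold higher in the rich barcodes and 18.7% at least 2-fold lower. The listed genes past 2-fold higher were 10 of 12 for haem synthesis, 6 of 7 for iron, 13 of 13 for membrane, 6 of 6 for transcription factors, 8 of 9 for redox and 10 of 10 for organelle clearance. Of stromal genes 6 of 7, of nephron progenitor genes 3 of 3 and of ureteric genes 2 of 2 were past 2-fold lower. Podocyte and endothelial genes went the other way, with 2 of 2 and 1 of 2 past 2-fold higher. They summed to 228 and 373 CPM in rich barcodes, against 68.3 and 114 CPM in moderate ones, on 12 to 31 UMIs a sum.

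Markers of red cell maturation were among the genes higher in the rich barcodes. Slc4a1 gave 146 UMIs in rich and 30 in moderate barcodes, a ratio of 10.3 (95% interval 6.90 to 15.8). Alas2 was at a ratio of 5.998 (4.72 to 7.67), Car2 at 7.87 (6.40 to 9.74) and the antioxidant Gpx1 at 5.84 (5.15 to 6.65). Xpo7 gave 56 and 6 UMIs, a ratio of 19.7 (8.51 to 56.0), and the membrane protein gene Epb4.2 gave 20 and 2, a ratio of 21.1 (5.13 to 186). Hbq1b, the theta globin, which the haemoglobin rule did not count, gave 23 UMIs in 11 rich barcodes and none in moderate ones, which makes it at least 16.2-fold higher with the moderate group set to 3 counts.

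Other large ratios included genes on no list. Ppp1r15a, which directs dephosphorylation of the initiation factor eIF2-alpha, gave 38 UMIs in rich and 1 in moderate barcodes, a ratio of 80.2 (13.6 to 3252). Tmcc2 was at 32.7 (12.2 to 124), the protease Ctse at 26.4 (6.58 to 230) and the cell-cycle factor E2f2 at 23.2 (5.71 to 204). The Kell antigen gene Kel, which is on the membrane list, was at 15.5 (4.65 to 80.8). Lower in rich barcodes, which held 83186 non-haemoglobin UMIs against 175670 in moderate ones, was the RNA helicase Ddx3x, with 1 UMI against 28. So were Crym and Wfdc2, of the nephron progenitor and ureteric lists, with 1 against 26 and 1 against 22. Tmem14c, which carries haem precursors, differed from its pathway, with 228 CPM in rich and 444 CPM in moderate barcodes (ratio 0.514, 0.294 to 0.858).

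The embryonic-expressing and adult-chain barcodes of wildtype 2 differed in more than their globins. The 13 embryonic-expressing barcodes held 19882 non-haemoglobin UMIs and the 88 adult-chain ones 238974. Again no test is possible in 1 library. Of the 4110 genes, 14.9% were at least 2-fold higher in the embryonic-expressing barcodes and 8.69% at least 2-fold lower, while for 930 genes no ratio is given because a class was at 0 and the floor of 3 counts did not give a bound. Their median haemoglobin share was 67.2% (31.9 to 82.6%), against 58.4% (20.1 to 87.8%), and they held a median of 618 genes, against 963.

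Haem synthesis genes summed to 1107 CPM (95% interval 693 to 1675) in embryonic-expressing barcodes, against 4783 CPM (4510 to 5068) in adult-chain ones, and 6 of 12 were past 2-fold lower. Fech gave 1 UMI in the embryonic class and 188 in the adult-chain class (15.6-fold lower, 2.77 to 621), and the iron importer Slc25a37 gave 1 and 199 (16.6-fold lower, 2.94 to 657). Alad gave 1 and 113 (9.40-fold lower, 1.65 to 375). Alas2 gave 8 and 353 UMIs (3.67-fold lower, 1.84 to 8.57), and Uros, with 5 and 22, was the gene past 2-fold higher.

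Membrane and redox genes were also lower in the embryonic class. Membrane genes summed to 604 CPM (312 to 1054), against 3737 CPM (3496 to 3990) in the adult-chain class, with 3 of 13 past 2-fold lower and 6 without a ratio. Slc4a1 gave 3 UMIs, all in 1 barcode, and 173 (4.80-fold lower, 1.61 to 23.5). Redox genes summed to 3672 CPM (2878 to 4617), against 13043 CPM (12589 to 13509), with 5 of 9 past 2-fold lower. Car2 gave 4 UMIs in 1 barcode, against 549 in 46 (11.4-fold lower, 4.43 to 42.1), and Gpx1 gave 15, against 1232 (6.83-fold lower, 4.13 to 12.2). Prdx2 was 2.29-fold lower (1.56 to 3.50).

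Ferritin went the other way. Iron genes as a list summed to 20169 CPM in embryonic-expressing barcodes, against 9332 CPM in adult-chain ones, since Fth1 stood at 13731 CPM against 5005 CPM (ratio 2.74, 2.40 to 3.13) and Ftl1 at 5533 CPM against 2314 CPM (ratio 2.39, 1.93 to 2.94). The hydrolase Nudt4 had the largest ratio among genes with at least 20 UMIs in at least 5 barcodes, 10.6 (5.80 to 19.4), with 23 UMIs in 6 embryonic-expressing barcodes and 26 in 18 adult-chain ones. Malat1 was at 3.06 (2.47 to 3.76), the protease inhibitor Cst3 at 3.71 and the tetraspanin Cd81 at 2.94.

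Cell-cycle genes were lower in the embryonic class, where the S-phase list stood at 1207 CPM (773 to 1796), against 2469 CPM (2274 to 2676), and the G2 and M list at 1911 CPM (1353 to 2623), against 3984 CPM (3735 to 4245). Birc5 and Pttg1, regulators of mitosis, gave 1 UMI each, against 98 and 101. These are raw counts out of 19882 non-haemoglobin UMIs in the embryonic class and 238974 in the adult-chain class, so they overstate the difference in level. Stromal genes stood at 2867 CPM against 1469 CPM, and endothelial genes at 956 CPM (575 to 1492) against 134 CPM (91.6 to 189). Of the 19 endothelial UMIs of the embryonic class, 7 were Cdh5 UMIs of 1 barcode. The part of other cells' RNA in these differences was not tested.

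Erythroid barcodes were rarer in both mutant libraries than in both wildtype libraries, an order that depended on how members were chosen, and an exact permutation test of 2 libraries a genotype cannot reach the 0.05 level. Erythroid barcodes made up 0.117% (Wilson 95% interval 0.0207 to 0.661%) of mutant 1 and 0.219% (0.119 to 0.403%) of mutant 2, against 0.308% (0.141 to 0.670%) of wildtype 1 and 2.004% (1.65 to 2.43%) of wildtype 2. Mutant libraries averaged 0.168 ± 0.0723% and wildtype libraries 1.16 ± 1.199% (SD, n = 2 each), a difference of -0.988 percentage points, with both mutant values below both wildtype values. The exact two-sided permutation test gave p = 0.333, the smallest that 2 against 2 libraries allow. Wildtype 2 carried the difference, which was -0.1395 points without it. At a haemoglobin share of at least 40% the shares were 0 and 0.197% in mutants 1 and 2, against 0.103 and 1.57% in wildtypes 1 and 2, so the genotypes overlapped (exact permutation p = 0.667). Without the 5% highest Scrublet scores they were 0.124 and 0.230%, against 0 and 1.86%, and wildtype 1 lay below both mutants (exact permutation p = 1). Wildtype 2 also had the highest haemoglobin share in its other barcodes, and the part of this in the difference was not tested.

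Embryonic chains were no steadier between genotypes. Their share of erythroid haemoglobin UMIs averaged 22.2 ± 31.2% in mutant libraries and 1.42 ± 1.97% in wildtype libraries (SD, n = 2 each), a difference of 20.7 points (exact two-sided permutation p = 0.667), and the mutant mean rested on the 1 barcode of mutant 1. Without mutant 1 the difference was -1.33 points. Between mutant 2 and wildtype 2, the 2 libraries with 10 or more members, the values were 0.0844% and 2.81%, and 0 of 10 members in mutant 2 against 13 of 101 in wildtype 2 were embryonic-expressing. Taking 3 counts as the limit of a count of 0, 0 of 10 allows a share of up to 30.0%. Gene expression within erythroid barcodes was not tested between genotypes, since mutant 1 and wildtype 1 held 1 and 6 members. The summed levels stood side by side at 788, 7319, 2263 and 4501 CPM for haem synthesis and 788, 6164, 3160 and 3496 CPM for membrane genes in mutants 1 and 2 and wildtypes 1 and 2, with 1 UMI behind each value of mutant 1. Mutant 2 lay above both wildtype libraries in both lists, and also for iron, with 14205 CPM in mutant 2 against 5423 and 10164 CPM in wildtypes 1 and 2, for redox, with 17769 against 7344 and 12323 CPM, and for organelle clearance, with 6453 against 854 and 2507 CPM. Mutant 1 lay below both wildtype libraries for haem synthesis, membrane and redox and between them for iron and organelle clearance, on 1 to 7 UMIs a list. The haemoglobin share of members had its highest median in mutant 2, and its part in this order was not tested.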

How the data were processed

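Gene-by-barcode counts, not normalized, were deposited by the authors for 4 libraries, and all values were whole and at least 0. Alignment software and build, per the submitters' processing notes, were Bowtie2 2.2.7 and mm10. The annotation, the strand setting and the collapsing of molecular identifiers are not given in the sources used here, so genes overlapping on opposite strands cannot be told apart. Library totals were 3572346 UMIs in mutant 1, 21350698 in mutant 2, 9817486 in wildtype 1 and 24834658 in wildtype 2.

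Barcodes were chosen as described, and haemoglobin genes were left out of tables and library sizes. Sums per library and kind of barcode were tested with edgeR 4.0.16 in R 4.3.3 (filterByExpr, robust quasi-likelihood fit, library block), and DESeq2 1.42.0 was an alternative. TMM factors came from genes with at least 500 CPM in the other barcodes, a change made after TMM over all genes proved unstable on simulated counts for the sparse sum of mutant 1. In such counts the fit with 4 libraries made more false calls than the fit without mutant 1, so both stand beside each count. Doublets were not removed. Scrublet (scanpy 1.11.5, Python 3.11.15) gave ranks only.

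Named genes were list members, the 15 largest changes higher and 10 lower past the test without overlap and at 50 CPM or more, and, added after the data were seen, those without overlap in 3 libraries and past the test with and without mutant 1. In 1 library the 10 largest ratios each way with at least 20 UMIs in at least 5 barcodes were eligible. Mitochondrial, ribosomal protein, predicted and chrY genes were not named. The members, the lists (185 genes, 4 in no table) and the tests were chosen with earlier results of these data known. Chromosome positions of genes are those of GENCODE vM21, while the promoter windows were placed by RefSeq starts.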

Additional observations from a re-analysis of the deposited data

How the results depend on the processing

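The direction of the erythroid share by genotype (-0.988 points) kept its sign, at -1.05 to -0.721 under other limits and -1.84 to -0.1395 with a library left out, but both mutant libraries no longer lay below both wildtype libraries at a haemoglobin share of at least 40% or without the 5% highest Scrublet scores. The embryonic share by genotype (20.7 points) was -1.38 at a haemoglobin share of at least 40%, where mutant 1 has no member, and -1.33 to 42.8 with a library left out. No label pairs the libraries, and with a replicate block the differences were -0.988 (exact p = 0.500) and 20.7 points (exact p = 1).

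Against 223 genes called in erythroid barcodes (208 higher, 15 lower), DESeq2 called 56 (56 and 0), no filter on low counts 352 (340 and 12), no library block 108 (108 and 0), a haemoglobin share of at least 40% 342 (323 and 19), at least 1000 genes 91 (91 and 0), TMM over all genes 128 (120 and 8), where the median of all genes moved by -0.15 on the log2 scale, and members with under 5 UMIs of other-cell markers 354 (347 and 7). Leaving out a library gave 85 to 268, 85 to 230 higher and 0 to 38 lower. Lower calls were 52 without the 5% highest Scrublet scores and 0 with wildtype 2 and mutant 2 only. Of the named genes, 4 changed direction. They were Col1a2 (-2.95), Col3a1 (-2.47) and Dcn (-3.62) without marker-rich members, and Xpo7 (-0.11) at 1000 genes per barcode. The changes of Col1a2, Col3a1 and Dcn are built in, since these genes were counted to leave those members out. Over all named genes and settings 960 values kept direction and call, 125 lost the call and 6 gained it. The cause was not tested. In 17 fits, 26 higher genes passed each time.

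The embryonic class of wildtype 2 held 0 barcodes at the first split of 50%, 2 at 40% and 13 at the added 10%. Tests of genes between genotypes within erythroid barcodes, and between classes, were not run, since fewer than 10 members stood in some library of each group or class. Of the 9 risen haem synthesis genes, 5 passed at 1000 genes per barcode. Of the 6 risen iron genes 3 passed with TMM over all genes, and of the 5 risen redox genes 3 with DESeq2. Epo and Kit genes, with 3 risen, had no call with DESeq2, without wildtype 2 or at 1000 genes.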
